A study of Schizosaccharomyces pombe with 12 samples.

Results

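Dihydrouridine synthases reduce uridine to dihydrouridine in RNA, and the delta4dus strain of fission yeast (Schizosaccharomyces pombe) is read here, from its name, as lacking the 4 genes dus1 to dus4. The series title links dihydrouridine to chromosome segregation in meiosis. The 10 genes described here work in chromosome segregation, not only in meiosis: slp1, mad2, bub1, cut2, cut1, dad1, rad21, psc3, sgo2 and dhc1. Among them rad21 and psc3 are annotated as mitotic cohesin subunits, and mad2 and bub1 as mitotic checkpoint proteins. The 10 genes were found by systematic ID in the footprint and total RNA tables, 10 of 5136 rows in each.

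Sister chromatids are held together by cohesin until anaphase. The spindle checkpoint keeps the anaphase-promoting complex inactive while chromosomes lack attachment to the spindle. When the checkpoint is satisfied, the complex marks securin for destruction, and separase, set free, cleaves the kleisin subunit of cohesin. In fission yeast meiosis, dynein also pulls the nucleus back and forth before the first division, a movement that helps homologous chromosomes pair.

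The compared cells were delta4dus and wild type (WT), both grown to mid-log phase without cycloheximide and collected by filtration. There were 12 libraries, 3 of ribosome footprints and 3 of total RNA per genotype, with the replicate letters A, B and C. Footprints are the stretches of mRNA that ribosomes shield from RNase I, here 28 to 32 nt long, and their number reflects how many ribosomes sat on a gene. The strain background, mating type, medium and the way the dus loci were removed are not given in the sources used here. The labels do not say that the letters are separate cultures, so p-values measure the spread between these libraries, which may be technical. Bulk libraries also cannot tell a change in the share of cells at one stage of the cell cycle from a change in each cell.

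Footprint libraries held 1747608 to 2591755 counts in delta4dus and 601969 to 1725344 counts in WT. Every delta4dus footprint library was thus deeper than every WT one, and raw sums of counts below are not at equal depth. Total RNA libraries held 1886954 to 2199320 counts. The genotype labels were checked with the deleted genes: summed over 3 footprint libraries, dus1, dus2, dus3 and dus4 had 0, 14, 2 and 35 counts in delta4dus, against 128, 71, 263 and 49 counts in WT. Each gene was lower in every delta4dus library than in any WT library, although dus2 and dus4 still stood at 12.6% and 35.7% of their WT level. The 10 genes were thinly covered, with 2 to 139 counts per delta4dus footprint library and 3 to 70 counts per WT footprint library. Single values below are in CPM, a gene's count relative to the size of its library after TMM adjustment, means carry the SD of 3 libraries, and a fold change is the log2 of the delta4dus level over the WT level. Adjusted p-values are from edgeR quasi-likelihood tests, Benjamini-Hochberg over all genes tested, and intervals are 95% intervals of the log2 fold change from the same fit.

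Footprints of slp1 and dad1 rose in delta4dus, those of psc3 and dhc1 fell, and the other 6 genes did not pass the threshold of an adjusted p of 0.05. All 10 genes passed the filter on low counts, which a gene can pass through the genotype where it is higher. Dhc1 (5, 2 and 5 counts in delta4dus) passed through its WT libraries. Dad1 (3 counts in WT replicate B) passed through its delta4dus libraries. These 4 calls among 10 genes compare with 28.6% of the 4505 genes tested in footprints (14.5% higher and 14.1% lower). Genotypes did not overlap for 6 of the 10 genes, against 38.8% of all genes tested. Of these, 2 were higher, against 19% of all, and 4 lower, against 19.9%. The 10 genes were chosen with earlier results of these data known, so these and later counts of calls among them are descriptions. The median log2 fold change of the 10 genes was -0.10, close to the -0.03 of all genes tested, with 5 values above 0 and 5 below.

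**Figure D1:**
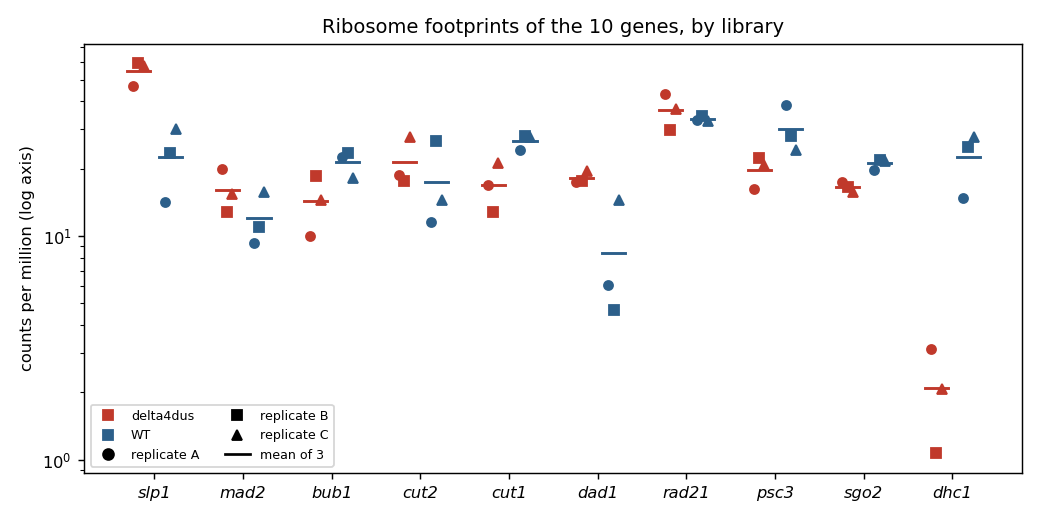
Footprints of the 10 genes in CPM on a log axis, with delta4dus left of WT for each gene. Each marker is 1 library (shape gives the replicate letter) and each bar is the mean of 3; the 3 delta4dus libraries of dhc1 lie between 1.07 and 3.12 CPM, under every other value in the plot.

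Slp1 (SPAC821.08c.1, chromosome I, coding length 1467 bases) is the fission yeast Cdc20, the activator that brings substrates to the anaphase-promoting complex and the protein that the checkpoint restrains. Its footprints were 46.8, 59.1 and 57.7 CPM in delta4dus replicates A, B and C, against 14.3, 23.4 and 30.2 CPM in WT replicates A, B and C. Every delta4dus library lay above every WT library. The means were 54.6 ± 6.74 CPM in delta4dus and 22.6 ± 8.00 CPM in WT, a ratio of means of 2.41. The fitted log2 fold change, in which deeper libraries weigh more, was 1.43 (SE 0.20, interval 1.03 to 1.84, edgeR adjusted p = 1.19e-08). The call held under all 12 alternatives, with changes from 1.02 without WT replicate A to 1.71 without WT replicate C.

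Mad2 and Bub1 belong to the checkpoint that restrains Slp1: Mad2 binds Slp1 directly, and Bub1 is a kinase that gathers checkpoint proteins at kinetochores. Mad2 (SPBC20F10.06.1, chromosome II, 612 bases) ran from 12.8 to 19.98 CPM in delta4dus and from 9.33 to 15.7 CPM in WT. The genotypes overlapped, and the interval of its log2 fold change was -0.12 to 1.08 around 0.48 (edgeR adjusted p = 0.244). Bub1 (SPCC1322.12c.1, chromosome III, 3135 bases) ran from 9.99 to 18.6 CPM in delta4dus and from 18.1 to 23.4 CPM in WT. It overlapped by 1 library of each genotype, with a log2 fold change of -0.56 (interval -1.08 to -0.04, edgeR adjusted p = 0.0978). It passed in 1 of 11 alternatives, without delta4dus replicate B (-0.76, edgeR adjusted p = 0.0460), and was smallest without delta4dus replicate A (-0.39, edgeR adjusted p = 0.329).

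Securin and separase are the next step. Cut2 (SPBC14C8.01c.1, chromosome II, 891 bases) is securin, the inhibitor and partner of separase. It had 18.7, 17.6 and 27.8 CPM in delta4dus replicates A, B and C, against 11.5, 26.5 and 14.5 CPM in WT replicates A, B and C. WT replicate B stood among the delta4dus values, and the change of 0.51 (interval -0.03 to 1.04) did not pass (edgeR adjusted p = 0.153). Single libraries moved it both ways: it was 0.81 without WT replicate B (edgeR adjusted p = 0.0294), 0.23 without delta4dus replicate C (edgeR adjusted p = 0.661) and 0.16 without WT replicate A (edgeR adjusted p = 0.794).

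Cut1 (SPCC5E4.04.1, chromosome III, 5487 bases) is separase, the protease that opens cohesin. It had 16.9, 12.8 and 21.2 CPM in delta4dus replicates A, B and C, against 24.1, 28.1 and 27.8 CPM in WT replicates A, B and C. All delta4dus libraries lay below all WT libraries. Its log2 fold change of -0.59 (interval -1.06 to -0.12) did not pass (edgeR adjusted p = 0.0519). It passed in 1 of 11 alternatives, without delta4dus replicate C (-0.82, edgeR adjusted p = 0.0230), and was smallest without delta4dus replicate B (-0.42, edgeR adjusted p = 0.243).

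Because a ratio of 2 genes within a library does not depend on library scaling, footprints per kb of coding length were also compared within libraries. The pairs were chosen after their values were seen, so the ratios are given without a test. The securin to separase ratio was 6.84, 8.47 and 8.09 in delta4dus replicates A, B and C, against 2.94, 5.82 and 3.21 in WT replicates A, B and C. It was above 1 in every library and higher in each delta4dus library than in any WT library. Cut2 is much shorter than cut1 (891 against 5487 bases). WT footprints per kb fell with coding length over 4490 genes (Spearman correlation -0.477), and so did the footprint change (-0.343). The part of coding length in this ratio was not tested. The ratio of slp1 to mad2 was 0.978, 1.93 and 1.57 in the delta4dus libraries and 0.638, 0.894 and 0.802 in the WT libraries, again without overlap.

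Dad1 (SPAC16A10.05c.1, chromosome I, 273 bases) is a small subunit of the DASH complex, which couples kinetochores to microtubules. Its footprints were 17.5, 17.6 and 19.5 CPM in delta4dus replicates A, B and C, against 6.04, 4.69 and 14.5 CPM in WT replicates A, B and C. The delta4dus libraries were close together and all above WT, whose replicate C was far above its other libraries. The WT values rested on 11, 3 and 12 counts. The means were 18.2 ± 1.15 CPM in delta4dus and 8.41 ± 5.32 CPM in WT, a log2 fold change of 1.19 (SE 0.32, interval 0.55 to 1.84, edgeR adjusted p = 0.00235). The call was lost without WT replicate A (0.85, edgeR adjusted p = 0.127). Dad1 was not tested after thinning to one depth or at a mean of at least 50 counts.

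**Figure D2:**
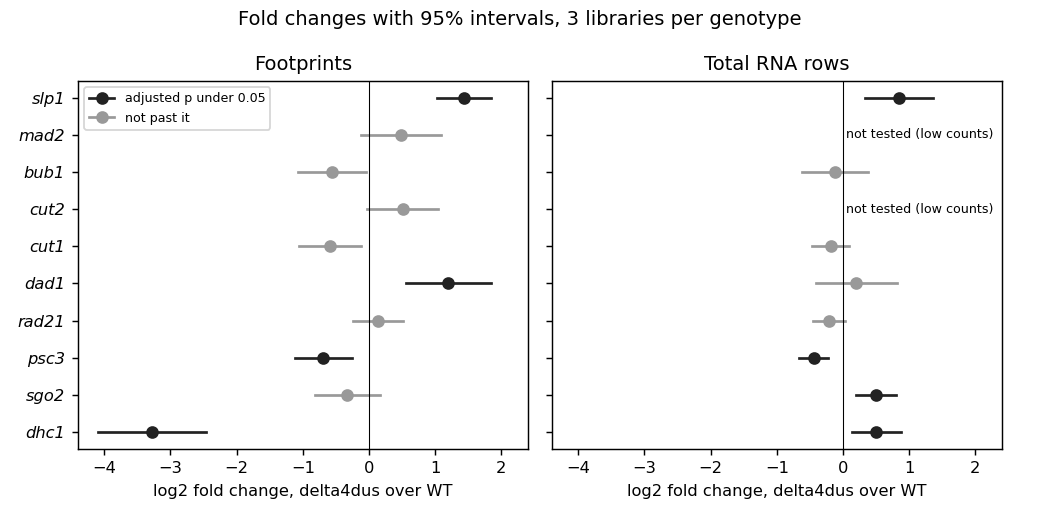
Log2 fold change of delta4dus over WT for the 10 genes with 95% intervals, in footprints (left) and in total RNA rows (right); dark points have an adjusted p under 0.05. In footprints slp1 (1.43) and dad1 (1.19) lie above 0 and psc3 (-0.69) and dhc1 (-3.29) below, while in total RNA rows dhc1 stands at 0.50.

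Among the cohesin genes, psc3 passed the threshold and rad21 did not, and the difference between the 2 genes was not tested. Rad21 (SPCC338.17c.1, chromosome III, 1887 bases) is the kleisin of mitotic cohesin, the subunit that separase cuts. It ran from 29.8 to 43.1 CPM in delta4dus and from 32.6 to 34.4 CPM in WT, so the WT values lay inside the delta4dus range. Its log2 fold change was 0.14, and the interval of -0.24 to 0.51 bounds the change on both sides (edgeR adjusted p = 0.652).

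Psc3 (SPAC17H9.20.1, chromosome I, 2889 bases) is a cohesin subunit of the STAG family, which binds the kleisin. It had 16.2, 22.4 and 20.8 CPM in delta4dus replicates A, B and C, against 38.4, 28.1 and 24.2 CPM in WT replicates A, B and C. The genotypes did not overlap, and WT replicate A was the highest library. Psc3 footprints averaged 19.8 ± 3.18 CPM in delta4dus and 30.2 ± 7.36 CPM in WT, 65.5% of the WT level (log2 fold change -0.69, SE 0.22, interval -1.12 to -0.26, edgeR adjusted p = 0.0101). The call was lost without WT replicate A (-0.36, edgeR adjusted p = 0.412), without delta4dus replicate A (-0.58, edgeR adjusted p = 0.0547), after thinning all footprint libraries to one depth (-0.79, edgeR adjusted p = 0.0656) and with DESeq2 (-0.64, adjusted p = 0.138). The psc3 to rad21 ratio of footprints per kb, given without a test, was 0.246, 0.490 and 0.367 in delta4dus and 0.762, 0.534 and 0.484 in WT, with an overlap between delta4dus replicate B and WT replicate C.

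Sgo2 (SPAC15A10.15.1, chromosome I, 1944 bases) is the shugoshin of growing cells, which brings the chromosomal passenger complex with Aurora B kinase to centromeres. It had 17.5, 16.5 and 15.8 CPM in delta4dus replicates A, B and C, against 19.8, 21.9 and 21.7 CPM in WT replicates A, B and C. All delta4dus libraries lay below all WT libraries by a small margin. The change was -0.33 (interval -0.82 to 0.17) and did not pass (edgeR adjusted p = 0.352).

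Dhc1 had the largest change of the 10 genes. Dhc1 (SPAC1093.06c.1, chromosome I, 12591 bases) is the heavy chain of dynein, the motor that moves the nucleus in meiosis. Its counts were 5, 2 and 5 in delta4dus replicates A, B and C, against 27, 16 and 23 in WT replicates A, B and C. In CPM these were 3.12, 1.07 and 2.08 in delta4dus, against 14.8, 24.99 and 27.8 in WT, so the lowest WT library was well above the highest delta4dus library. Footprints averaged 2.09 ± 1.03 CPM in delta4dus and 22.5 ± 6.83 CPM in WT, 9.27% of the WT level. The log2 fold change was -3.29 (SE 0.41, interval -4.10 to -2.47, edgeR adjusted p = 1.70e-10), and the call held under the 11 alternatives in which the gene was tested (-4.18 to -3.00).

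Per length, dhc1 was nonetheless the least covered of the 10 genes in both genotypes, with 0.166 ± 0.0817 CPM per kb in delta4dus and 1.79 ± 0.542 CPM per kb in WT. In WT, 0.245% of the tested genes had fewer footprints per kb. Dhc1 is also the longest of the 10 genes, and WT footprints per kb fell with coding length over all genes tested. Apart from the light chain gene dlc1, the listed partners of dhc1 in the motor had few counts in both genotypes: dic1, the intermediate chain, had 4 counts over the 3 delta4dus libraries and 0 over the 3 WT libraries, and dli1, the light intermediate chain, had 8 counts in delta4dus and 5 in WT. The dynactin gene ssm4 had 6 counts in delta4dus and 4 in WT. Num1, which anchors dynein at the cell cortex, had 6 in delta4dus and 7 in WT. In CPM, num1 had 1.01 ± 0.413 in delta4dus and 1.84 ± 0.804 in WT. Dlc1 was the best covered gene of the list, at 112.5 ± 9.85 CPM in delta4dus and 97.5 ± 3.69 CPM in WT, and did not pass (log2 fold change 0.20, edgeR adjusted p = 0.173). Of the 13 genes of dynein, dynactin and nuclear movement, 3 were tested and dhc1 was the only one called. The untested genes had too few footprints in both genotypes, while dhc1 entered the test through its WT libraries.

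Genes of meiosis and mating were read beside dhc1, since its best known work is in meiosis. Of the 15 meiosis-specific genes, 13 had too few footprints to be tested. Rec8, the meiotic kleisin, had 1 count in delta4dus and 1 in WT over 3 libraries each, the meiotic shugoshin gene sgo1 had 0 in each, and mcp7, which acts in meiotic recombination, had 4 in delta4dus and 18 in WT. The 2 that were tested did not pass: mes1, an inhibitor of the anaphase-promoting complex in meiosis, had 11.5 ± 1.51 CPM in delta4dus and 15.6 ± 0.178 CPM in WT (-0.44, edgeR adjusted p = 0.274), and rec10, a protein of the meiotic chromosome axis, had 6.69 ± 2.34 CPM in delta4dus and 5.29 ± 2.07 CPM in WT (0.31, edgeR adjusted p = 0.648). Genes of mating and the pheromone response, a list chosen after seeing the data, were lower in delta4dus in 7 of the 9 tested and higher in 0, with a median of -0.85, against 14.1% of all genes tested that were lower. Since the list was picked with these values in view, its count is a description. Of the 7 calls, 4 were lost with DESeq2 (mam3, byr1, gpa1 and mei2) and 3 without WT replicate A (sxa1, gpa1 and mei2). The largest falls among them were mfm2, a gene for the mating pheromone M-factor, at 11.4 ± 1.73 CPM in delta4dus and 52.5 ± 3.41 CPM in WT (log2 fold change -2.15, edgeR adjusted p = 6.08e-14), and mam1, the M-factor exporter (-1.94, edgeR adjusted p = 6.22e-05). Mei2, an RNA-binding protein needed to start meiosis, was also lower (-1.06, edgeR adjusted p = 0.00511). The calls of mfm2 and mam1 were lost in 0 of the 11 and 10 alternatives that tested them, and that of mei2 in 3 of 10. The part of mating state in the fall of dhc1 was not tested.

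Across the 6 footprint libraries, the genes whose pattern lay nearest to that of dhc1 among 3821 compared were uck2 and urg2, both annotated as uracil phosphoribosyltransferases, and urg1, annotated as GTP cyclohydrolase II. Their root mean square distances on the centred log2 CPM scale were 0.433, 0.438 and 0.470. Nearest to slp1 among 3820 genes were the uncharacterized SPBC31F10.17c (0.107), the NADPH-hemoprotein reductase gene SPAC1F12.10c (0.220) and uba3, a NEDD8-activating enzyme subunit (0.233). Nearest to dad1 were the uncharacterized SPBC887.08 (0.242), the DNA polymerase delta subunit gene cdm1 (0.277) and the mitochondrial ribosomal protein gene mrpl16 (0.283).

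Levels were compared between genes as footprint CPM per kb of coding length. In WT these levels fell with coding length, at a Spearman correlation of -0.477 over 4490 genes and -0.976 over the 10 genes. The WT order below thus nearly follows the order of length, whose part in it was not tested. Dad1 was highest, at 66.7 ± 4.22 in delta4dus and 30.8 ± 19.5 in WT. Slp1 followed in delta4dus at 37.2 ± 4.59, but in WT it was the fifth gene at 15.4 ± 5.45. Mad2 stood at 26.2 ± 5.96 in delta4dus and 19.6 ± 5.42 in WT. Cut2 stood at 24.0 ± 6.30 in delta4dus and 19.7 ± 8.93 in WT.

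Rad21 stood at 19.4 ± 3.51 CPM per kb in delta4dus and 17.6 ± 0.491 in WT, and sgo2 at 8.54 ± 0.438 in delta4dus and 10.9 ± 0.610 in WT. Psc3, bub1 and cut1 came next in both genotypes, with 6.85, 4.59 and 3.09 CPM per kb in delta4dus and 10.5, 6.81 and 4.86 in WT. In WT the gap between neighbours in this order was larger than both of their SDs only for psc3 and bub1, bub1 and cut1, and cut1 and dhc1. In delta4dus slp1 was separated in this way from dad1 above it and from mad2 below it, and of the genes further down only cut2 and rad21 were not separated from the gene above them. Of all tested genes, 52.1% in delta4dus and 26.2% in WT had fewer footprints per kb than slp1.

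Footprint changes also moved with coding length. Over 4490 genes, the Spearman correlation of the log2 fold change with coding length was -0.343, and over the 10 genes, which share the same 6 libraries, it was -0.879. The median log2 fold change was 0.20 in the decile of shortest genes (78 to 423 bases) and -0.31 in the decile of longest genes (2778 to 14775 bases). Psc3, bub1, cut1 and dhc1 belong to that longest decile, and dad1 to the shortest.

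Each gene was therefore also placed among genes of its own length decile. Slp1 exceeded 99.3% of them, dad1 97.6%, cut2 93.0%, mad2 88.0% and rad21 74.7%. Psc3 exceeded 14.7%, cut1 23.0%, bub1 25.7% and sgo2 30.2%, while no gene of the longest decile lay below dhc1. The part of coding length in the changes of these genes was not tested.

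**Figure D3:**
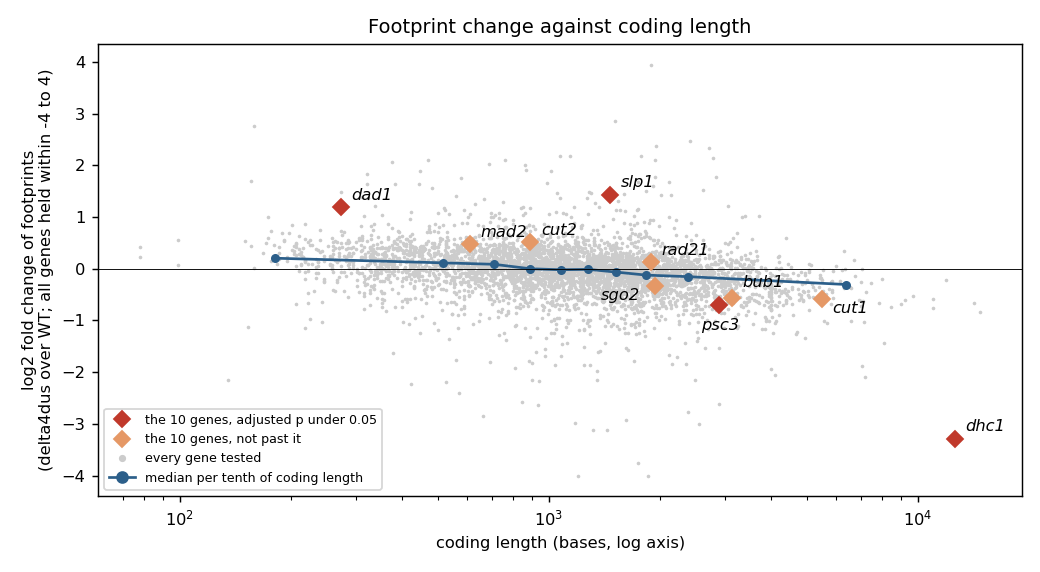
Log2 fold change of footprints, delta4dus over WT, against coding length in bases on a log axis, with the 10 genes named over all tested genes. The decile medians fall to -0.31 in the longest genes, and slp1 (1.43) and dhc1 (-3.29) stand far from the genes of similar length.

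Few genes of the wider pathways passed the threshold in footprints. Of 104 genes in 8 lists, 79 were tested, 4 were higher and 6 lower, or 12.7% called against 28.6% of all genes tested, with a median log2 fold change of -0.07. Leaving aside the 10 genes above, 2 of 69 were higher and 4 lower. Low counts limit which genes can pass, and these shares were not compared with those of genes of like coverage. The lists were also chosen with earlier results of these data known.

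Among 12 tested genes of cohesin, separase and their regulators, 0 rose and 3 fell, with a median of -0.26. Besides psc3 these were mis4 (-0.60, edgeR adjusted p = 0.0397) and ssl3 (-0.65, edgeR adjusted p = 0.0306), whose products together load cohesin onto chromosomes. Mis4 averaged 17.3 ± 1.29 CPM in delta4dus and 25.9 ± 2.22 CPM in WT, and ssl3 17.8 ± 5.39 CPM in delta4dus and 27.7 ± 6.70 CPM in WT. The call of mis4 was lost in 8 of the 11 alternatives that tested it and that of ssl3 in 6 of 11. Mis4 (4764 bases), like psc3, lies in the longest decile, whose median over all genes was -0.31. Ssl3 (1680 bases) lies in the decile of 1659 to 2037 bases, whose median was -0.12.

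In the anaphase-promoting complex and its activators, 2 of 14 tested genes rose and 1 fell, with a median of -0.15 over the list. Besides slp1, the gene that rose was the subunit gene apc14 (1.36, edgeR adjusted p = 0.00771), at 11.3 ± 1.57 CPM in delta4dus and 5.35 ± 2.87 CPM in WT. Apc14 is short, at 324 bases, and rested on 66 counts in delta4dus and 14 in WT. Its call was lost in 2 of the 10 alternatives that tested it.

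Of 11 checkpoint and chromosomal passenger genes, 1 fell and 0 rose: pic1, the INCENP of the passenger complex (-0.77, edgeR adjusted p = 0.0155, lost in 4 of 11 alternatives). Pic1, at 3057 bases, also lies in the longest decile. In the DASH complex dad1 was the only gene of 9 to pass, with a median of 0.17. Of 25 kinetochore and centromere genes only the kinetochore subunit gene fta3 passed (0.58, edgeR adjusted p = 0.0398, lost in 7 of 11 alternatives). Of the 5 condensin genes tested, 0 passed with edgeR, with values from -0.43 for cnd3 to -0.07 for cut14.

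**Figure D4:**
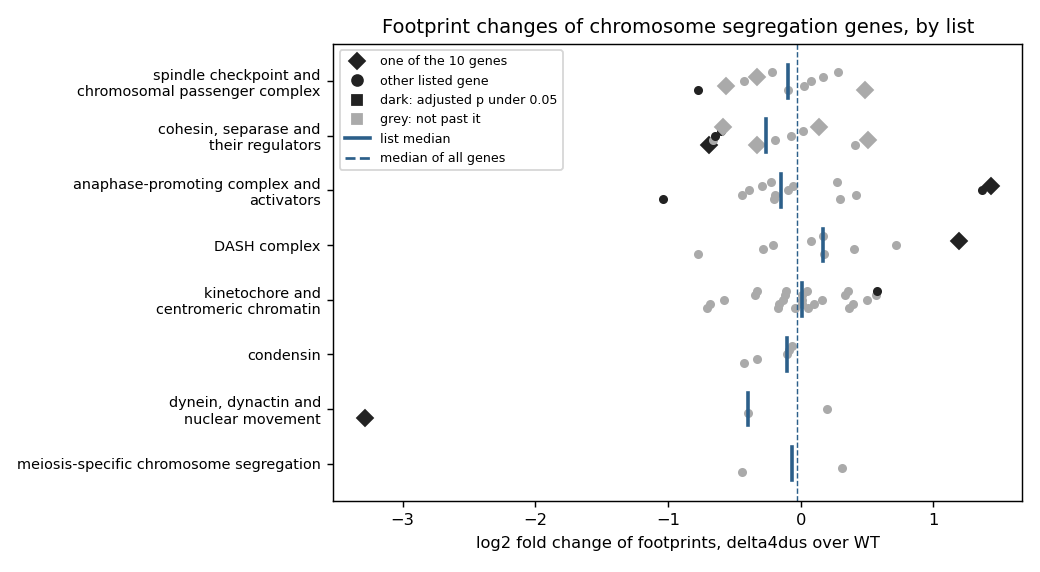
Log2 fold change of footprints, delta4dus over WT, for the tested genes of each list, 1 marker per gene, dark where the adjusted p is under 0.05; diamonds are the 10 genes, short bars the list medians and the dashed line the median of all genes. Most points lie near 0; dhc1 is the lowest at -3.29 and slp1 the highest at 1.43.

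The total RNA table was read with caution. Over 3809 genes, the Spearman correlation between total RNA rows and the genes' own footprints per kb was -0.0382. For 1919 genes that overlap a gene on the opposite strand, the correlation of the row with the footprints of that partner was 0.695. The dus1 row was higher in the total RNA libraries labelled delta4dus (log2 fold change 0.55, edgeR adjusted p = 0.0243), although the footprint libraries of that genotype held 0 dus1 counts. The rows of dus2 (-0.72, edgeR adjusted p = 0.0274), dus3 (-2.32, edgeR adjusted p = 4.19e-05) and dus4 (-0.43, edgeR adjusted p = 0.0307) were lower in delta4dus. Given the correlations and the dus1 row, total RNA rows are described as rows and not as the mRNA of the named gene.

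Several of the 10 genes have such partners. Psc3 shares 954 bases with SPAC607.02c on the other strand and rad21 shares 962 bases with pof3. The psc3 and rad21 rows averaged 433 and 99.6 CPM, above the footprints of these partners (31.6 and 9.77 CPM). Cut1 shares 105 bases with mgl1 and dhc1 shares 186 bases with hca4. The cut1 and dhc1 rows averaged 60.4 and 29.9 CPM, below the footprints of their partners (159 and 92.9 CPM). The part of the partners in these rows was not tested. Antisense lncRNA genes cover cut2 and sgo2 completely, and single ones cover 61.1% of slp1, 61.9% of dad1 and 62.5% of rad21.

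Of 8 rows tested, 3 were higher and 1 lower in delta4dus, against 22.9% of 3791 rows called (12.5% higher and 10.4% lower). Libraries of the genotypes did not overlap for 4 of the 8, against 37.1% of all rows tested. The median over all rows tested was 0.08. The psc3 row had 327, 339 and 436 CPM in delta4dus replicates A, B and C, against 503, 547 and 447 CPM in WT replicates A, B and C. Its libraries did not overlap, though delta4dus replicate C came close to WT replicate C, and the fall of -0.44 (edgeR adjusted p = 0.00623) held under all 11 alternatives that tested it.

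The slp1 row had 16.99, 23.9 and 17.99 CPM in delta4dus and 11.9, 8.33 and 12.3 CPM in WT, without overlap (log2 fold change 0.85, edgeR adjusted p = 0.0196). The sgo2 row had 59.0, 61.2 and 65.3 CPM in delta4dus and 50.3, 36.1 and 44.9 CPM in WT (0.50, edgeR adjusted p = 0.0212). The dhc1 row had 36.9, 38.3 and 29.8 CPM in delta4dus and 24.9, 21.7 and 27.8 CPM in WT (0.50, edgeR adjusted p = 0.0495), the opposite sign to its footprints. These rises were less stable: the adjusted p exceeded 0.05 in 4 of 10 alternatives for slp1, 6 of 11 for sgo2 and 8 of 11 for dhc1, with highest values of 0.0870, 0.102 and 0.195. The rows of dad1, bub1, cut1 and rad21 did not pass, and those of mad2 and cut2 were too low to be tested.

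**Figure D5:**
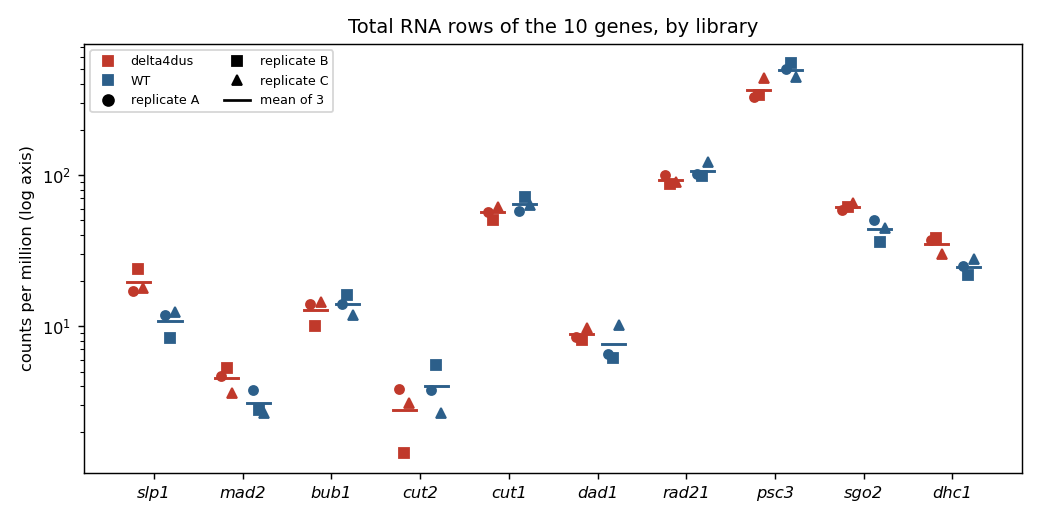
Total RNA rows of the 10 genes in CPM on a log axis, with delta4dus left of WT; each marker is 1 library and each bar the mean of 3. The 3 delta4dus libraries of psc3 lie at 327 to 436 CPM, under the 447 to 547 CPM of WT, and those of dhc1 lie above WT.

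Translational efficiency, the footprints of a gene relative to its total RNA row, was tested as the interaction of genotype and assay over all 12 libraries, and it inherits the limits of those rows. Of 8 genes tested, 2 were lower and 0 higher, against 20.2% of 3330 genes called (6.34% higher and 13.9% lower). Dhc1 fell by 3.75 on the log2 scale (SE 0.44, edgeR adjusted p = 5.95e-08), and this held under the 9 alternatives that tested it. Sgo2 was lower at -0.79 (edgeR adjusted p = 0.0329), a call lost in 8 of 9 alternatives.

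Slp1 (0.62, interval -0.08 to 1.32, edgeR adjusted p = 0.217) and dad1 (1.03, interval 0.12 to 1.93, edgeR adjusted p = 0.101) did not pass in this fit. Without WT replicate A the slp1 value was 0.16 (edgeR adjusted p = 0.831). In the authors' deposited table the efficiency changes were 0.87 for slp1 (adjusted p = 0.0192), 1.30 for dad1 (adjusted p = 0.0289) and -3.58 for dhc1 (adjusted p = 2.41e-09). The authors' deposited table gave sgo2 -0.48 (adjusted p = 0.386), and 15.3% of its 4878 rows had an adjusted p under 0.05.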

How the data were processed

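Per the submitters' processing notes, the tools were featureCounts, HISAT2, Bowtie2 2.4 and Trimmomatic 0.36, and the build was ASM294v2; the strand setting is not given in the sources used here. The authors deposited raw read counts per transcript for footprints and for total RNA, and a table of their own log2 fold changes with adjusted p-values. The labels' protocols name a stranded kit for the footprints.

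Counts were used as deposited in edgeR 4.0.16 (limma 3.58.1, R 4.3.3): TMM scaling, filterByExpr, quasi-likelihood F tests, two-sided, Benjamini-Hochberg over all genes tested, threshold 0.05. Footprints and total RNA were fitted separately, 3 delta4dus libraries against 3 WT libraries, and translational efficiency as a genotype by assay interaction over 12 libraries. The procedure was tested on simulated counts. Python 3.11.15, pandas 2.3.3, numpy 2.4.6, scipy 1.17.1 and matplotlib 3.10.9 made the summaries and figures. Replicates differed by more than counting noise (chi-square per degree of freedom at least 1.45), so none was counted as a duplicate. Names, coding lengths and overlaps come from RefSeq ASM294v3, which matched 5107 of 5136 rows; as that build differs from the files' build, no coordinates or sequences are given.

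Alternatives were DESeq2 1.42.0, RLE size factors, no filter, a mean of at least 50 counts, the replicate letter as a block, footprint libraries thinned to one depth, and each library left out. The genes and the 8 lists were chosen with earlier results of these data known. From 107 list symbols, fta5, dil1 and spo13 were left out, as their annotated products are other genes or a repeat. Genes named from a list are those that passed the footprint threshold, at most 5 per list, and 1 such gene is not reported here; the dynein and meiosis genes given by counts, the condensin genes and the mating genes were named after their values were seen. Genes nearest to slp1, dad1 and dhc1 were the 3 with the smallest distance of log2 CPM (prior count 2) among genes with a mean of at least 20 counts.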

Additional observations from a re-analysis of the deposited data

How the results depend on the processing

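The footprint calls of slp1 and dhc1 kept their direction and their side of the threshold under every alternative that tested them; the exceptions for dad1, psc3, cut1, bub1 and cut2 stand beside their values above. Counts over all genes depended more on the method. In footprints 654 genes were higher and 635 lower; DESeq2 gave 335 lower, thinning to one depth gave 414 higher and 345 lower, and leaving out 1 library gave 517 to 619 higher and 437 to 584 lower. In total RNA rows 475 were higher and 394 lower; DESeq2 gave 229 higher and 420 lower, RLE size factors 376 and 527, and leaving out 1 library 262 to 434 higher and 187 to 478 lower, with the lowest values without delta4dus replicates A and B and WT replicate A; the calls that were higher made up 54.7%, 35.3% with DESeq2 and 41.6% with RLE. For efficiency 211 were higher and 463 lower; DESeq2 gave 212 higher and 283 lower (42.8% higher, against 31.3%), a mean of at least 50 counts 89 and 137, and leaving out 1 library 139 to 205 higher and 287 to 372 lower, the lowest without WT replicate A. With 1 library left out, the bub1 total RNA row ranged over -0.27 to 0.023, above 0 without delta4dus replicate B, and psc3 efficiency over -0.36 to 0.13, above 0 without WT replicate A; the cause was not tested.

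Deviations of same-letter delta4dus and WT libraries correlated at 0.0317 to 0.0393 in footprints and -0.194 to 0.0081 in total RNA. Footprint libraries of different letters correlated at -0.0253 to -0.0113. Footprints and total RNA of the same letter correlated at 0.0001 to 0.0543 in delta4dus and -0.0121 to 0.0069 in WT. As same-letter values were all small or negative, the main fits did not pair libraries by letter. With the letter as a replicate block, footprints gave 592 higher and 548 lower, total RNA rows 297 and 197, and efficiency 188 and 436. A mean of at least 50 counts left values for only slp1 and rad21 among the footprints of the 10 genes, and counts of 2 to 139 per library limit how small a change can pass.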
